A study of Rattus norvegicus with 8 samples.

Results

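The slow-fibre skeletal muscle genes examined here code for proteins that slow-twitch (type I) muscle fibres use in place of the fast-fibre versions. There were 10 of them, namely Myh7, Myl2, Myl3, Tnnt1, Tnni1, Tnnc1, Tpm3, Casq2, Atp2a2 and Myoz2, and they were matched by gene symbol. They were chosen by fibre type with levels of muscle genes in these same libraries already known, so their levels, group differences and correlations are given as a description. Counts of members past thresholds of a fit over all genes are given beside the share of all genes and support nothing. Of the 10, 8 had a row among the 15590 genes of the deposited table, and the levels of Tnnc1 and Myoz2 were not analysed here. The question was whether the slow-fibre genes vary together, and apart from the fast-fibre gene Mylpf, from one library to the next.

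RNA sequencing was performed on the right Achilles tendons of wild-type male Sprague-Dawley (SD) rats, 8 to 10 weeks old. The 0 h p.r. (post-run) group held 4 libraries from rats killed immediately after a single 1 h bout of uphill treadmill running. The naïve control (NC) group held 4 libraries from rats that kept their normal activity without running. Running was urged by airflow and a mild electric stimulus. Cage controls of the study were killed together with rats rested for some hours after their run, so the time of death and running cannot be told apart. The libraries were made from polyadenylated RNA of whole tissue. Nothing in the labels ties a replicate number in one group to the same number in the other, and the p-values below measure the spread between these 8 samples.

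Skeletal muscle contracts when calcium released from the sarcoplasmic reticulum binds troponin on the thin filament, which moves tropomyosin and lets myosin heads pull on actin. Slow and fast fibres build this machinery from different genes: each has its own myosin heavy chain, light chains, troponin subunits and calsequestrin. The Achilles tendon joins the calf muscles, among which the soleus of the rat is rich in slow fibres and the gastrocnemius and plantaris are mostly fast. Tendon cells themselves make collagen and do not build sarcomeres.

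The DNA just upstream of the start site of the members was examined first, for short elements that textbook accounts tie to muscle genes. Promoters of RefSeq, build GRCr8, were used, with the 250 bases before the annotated start printed 5′ to 3′ on the strand of the gene. The sequences of Myh7 (chr15:32438195-32438444, minus strand), Myl3 (chr8:119616844-119617093, plus strand), Tnnt1 (chr1:78348785-78349034, plus strand) and Tnni1 (chr13:49781279-49781528, plus strand) are shown because these sarcomere genes were the most variable members. That of Casq2 (chr2:192214306-192214555, plus strand) is shown because its levels followed theirs less closely. Capitals mark matches, on either strand, to the E-box bound by myogenic factors (CANNTG), the MCAT element (CATTCC) and the MEF2 element.
Myh7: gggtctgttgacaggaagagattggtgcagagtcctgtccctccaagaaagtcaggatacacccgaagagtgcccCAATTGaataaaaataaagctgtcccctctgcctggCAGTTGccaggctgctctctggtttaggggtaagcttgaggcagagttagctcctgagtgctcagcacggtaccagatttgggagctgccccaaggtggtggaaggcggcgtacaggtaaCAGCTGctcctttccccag
Myl3: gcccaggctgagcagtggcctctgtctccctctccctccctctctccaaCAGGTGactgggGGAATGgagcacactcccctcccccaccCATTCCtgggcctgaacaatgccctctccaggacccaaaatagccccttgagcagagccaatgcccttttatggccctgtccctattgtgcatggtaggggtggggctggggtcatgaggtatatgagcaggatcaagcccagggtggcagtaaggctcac
Tnnt1: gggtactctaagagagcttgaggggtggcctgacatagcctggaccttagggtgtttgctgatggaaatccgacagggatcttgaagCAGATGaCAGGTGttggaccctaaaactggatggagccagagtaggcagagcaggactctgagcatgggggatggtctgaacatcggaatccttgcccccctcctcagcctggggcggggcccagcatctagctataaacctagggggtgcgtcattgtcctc
Tnni1: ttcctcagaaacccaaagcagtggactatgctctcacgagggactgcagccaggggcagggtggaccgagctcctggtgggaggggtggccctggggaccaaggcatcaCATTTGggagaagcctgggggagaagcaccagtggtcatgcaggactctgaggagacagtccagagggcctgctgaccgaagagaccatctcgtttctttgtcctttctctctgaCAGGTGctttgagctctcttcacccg
Casq2: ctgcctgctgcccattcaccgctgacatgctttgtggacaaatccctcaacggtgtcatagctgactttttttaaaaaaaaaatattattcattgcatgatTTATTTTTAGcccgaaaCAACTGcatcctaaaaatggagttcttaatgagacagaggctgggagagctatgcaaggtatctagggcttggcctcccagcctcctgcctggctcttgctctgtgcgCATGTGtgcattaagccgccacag

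An E-box lay in each of these 5 windows, with 3 matches in Myh7, 2 each in Tnnt1, Tnni1 and Casq2, and 1 in Myl3. Myl3 also held 2 MCAT matches, and Casq2 held 1 MEF2 match whose first base lies 149 bases before the start. Over the members, 10 promoters of 8 genes were listed (Myh7, Myl3, Tnnt1, Tnni1, Tpm3 with 3 starts, Casq2, Atp2a2 and Myoz2). Of these 10, 8 held an E-box, 1 held an MCAT element and 2 held a MEF2 element (Casq2 and Myoz2). Of 10 promoters listed for 9 fast-fibre partner genes, 9 held an E-box, 3 an MCAT element and 4 a MEF2 element. Among all 33469 promoters of the same 250 bases, 65.5% held an E-box, 12.1% an MCAT element and 2.96% a MEF2 element. A match describes the letters only, and the E-box in particular is present in most promoters whatever the tissue.

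Depth and library quality set how far low values can be read. FPKM (fragments per kilobase of transcript, scaled to sequencing depth) is a level per length, so that genes can be compared, and whole reads were recovered from its steps. The 8 libraries held between 11350560 and 17897056 recovered reads. NC replicate 2 had the largest share of FPKM on protein-coding genes of the mitochondrial genome, at 31.1%, and the other 7 libraries had 16.3% to 21.9%. Over all tested genes, Pearson's r between libraries of a group ranged from 0.921 to 0.974, a correlation across genes, which are not independent replicates. Between libraries of different groups it reached 0.958, so the ranges overlapped. Transcripts of skeletal muscle were measured in every library, and each of the 8 tenocyte markers examined below had reads in every library. Reads from fewer fibres and less RNA per fibre cannot be told apart in such whole-tissue libraries.

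The thick filament came first. Myh7 (ENSRNOG00000016983), the slow myosin heavy chain, which the heart also makes, had FPKM of 306, 61.1, 329 and 226 in NC replicates 1 to 4. In the 0 h p.r. libraries it had 161, 39.8, 0.514 and 16.0 FPKM in the same order of number. Thus 0 h p.r. replicate 3 stood far below the other 7 libraries, with 39 reads on Myh7 against 1708 to 32205 elsewhere, while 0 h p.r. replicate 1 lay within the NC range and the groups overlapped. The NC mean was 230 ± 121 FPKM and the 0 h p.r. mean 54.3 ± 72.8 (SD, n = 4 each), a difference of -3.42 on the log2(FPKM + 0.5) scale. How the counting treated reads from stretches that Myh7 shares with its near-identical neighbour Myh6 was not tested.

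Myl2 (ENSRNOG00000030848), the slow regulatory light chain of myosin, was lower in level. It had 54.8, 32.6, 34.1 and 44.1 FPKM in NC and 28.4, 6.09, 0 and 3.34 in 0 h p.r. The groups did not overlap, although the highest 0 h p.r. library, replicate 1, came close to the lowest NC library. In 0 h p.r. replicate 3 no read was counted on Myl2, against 29 to 468 reads elsewhere. With a floor of 3 reads, worth 0.488 FPKM in that library, the lowest NC library was at least 66.9-fold higher and the NC mean at least 84.9-fold higher. The group difference on the log2(FPKM + 0.5) scale was -3.23.

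Myl3 (ENSRNOG00000020955), the slow essential light chain of myosin, had 533, 211, 373 and 321 FPKM in NC. The 0 h p.r. libraries had 235, 54.6, 0.951 and 23.1 FPKM. Its order of libraries within 0 h p.r. was that of Myh7, with replicate 1 highest and replicate 3 lowest, and the groups overlapped through replicate 1 alone. The means were 360 ± 134 and 78.5 ± 107 FPKM (SD, n = 4 each), and the log2 difference of -3.72 was the largest among the members.

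The slow troponins followed the same order. Tnnt1 (ENSRNOG00000028041), the slow subunit that ties troponin to tropomyosin, had the highest mean level per length of the members in NC, though not in 0 h p.r., with 576, 328, 507 and 370 FPKM in NC and 289, 93.0, 1.52 and 34.6 in 0 h p.r. Its groups did not overlap. Tnni1 (ENSRNOG00000009073), the slow inhibitory subunit, had 264, 127, 235 and 183 FPKM in NC and 150, 41.2, 0.667 and 15.9 in 0 h p.r. Its groups overlapped, again through 0 h p.r. replicate 1. The log2 differences were -3.54 for Tnnt1 and -3.39 for Tnni1. Tnnc1, the slow calcium-binding subunit, was not analysed here.

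Over all 8 libraries, the remaining members varied far less. Within NC this did not hold throughout, where the SD on the log2 scale was 0.85 for Casq2 and 0.62 for Atp2a2, against 0.55 for Myl3 and 1.13 for Myh7. Tpm3 (ENSRNOG00000017441), which codes for slow tropomyosin and also for tropomyosins of most other cells, had 241, 193, 234 and 188 FPKM in NC and 187, 119, 103 and 96.3 in 0 h p.r. The groups did not overlap, but the nearest libraries were almost equal. The log2 difference was -0.80.

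Casq2 (ENSRNOG00000016243), the calsequestrin of slow fibres and heart, had 24.5, 8.58, 36.2 and 20.1 FPKM in NC and 17.9, 10.2, 6.97 and 7.64 in 0 h p.r. The groups overlapped, since NC replicate 2 lay among the 0 h p.r. libraries. Atp2a2 (ENSRNOG00000001285), the calcium pump of slow fibres, whose other isoform is made in most cells, had 114, 46.4, 105 and 110 FPKM in NC and 87.4, 73.9, 60.4 and 55.8 in 0 h p.r. NC replicate 2 had the lowest Atp2a2 of all 8 libraries. The log2 differences were -0.96 for Casq2 and -0.37 for Atp2a2, the latter -0.68 without NC replicate 2 and -0.25 without NC replicate 1. Myoz2, a Z-disc protein of slow fibres, was not analysed here for its level.

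**Figure D1:**
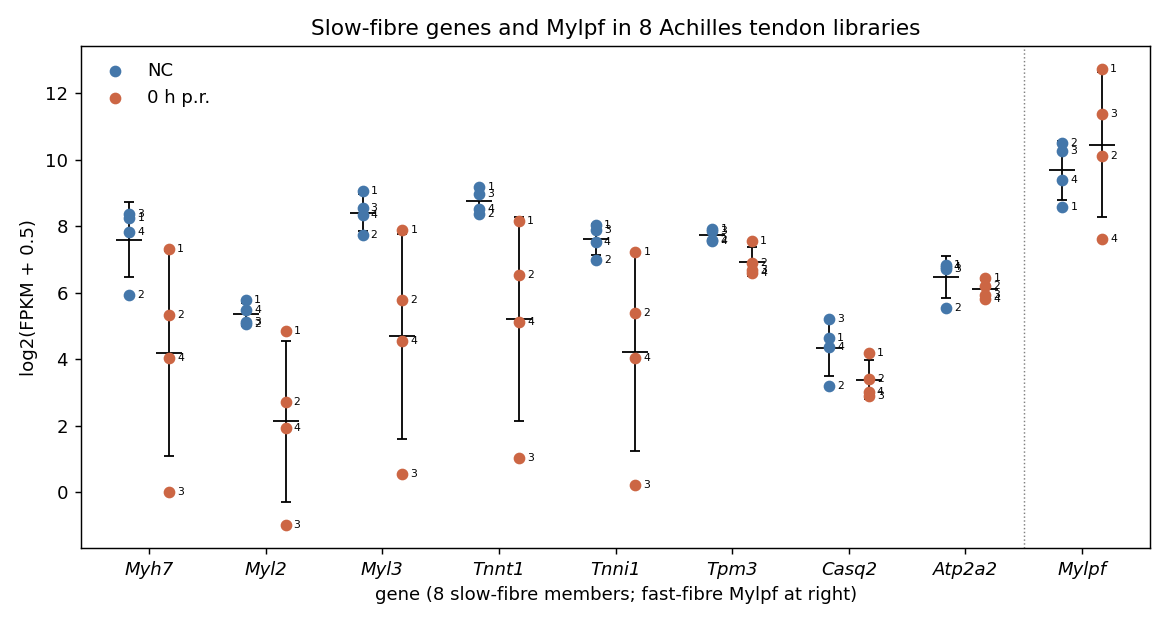
Level of each slow-fibre member, with the fast-fibre gene Mylpf at the right, as log2(FPKM + 0.5) on the vertical axis. Each point is 1 library with its replicate number, the horizontal bar is the group mean and the vertical bar is the SD over 4 libraries. The 5 sarcomere genes Myh7, Myl2, Myl3, Tnnt1 and Tnni1 spread widely among the 0 h p.r. libraries, highest in replicate 1 and lowest in replicate 3, while Tpm3, Casq2 and Atp2a2 span a narrower range.

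All 8 members with a row passed the filter on low values (at least 0.5 FPKM in at least 4 libraries), Myl2 among them with 1 library at 0. The mean log2 value was lower in 0 h p.r. than in NC for all 8, and the median of the 8 differences was -3.31, or -2.05 without 0 h p.r. replicate 3. Over the 13863 genes tested, the median difference was -0.0014 and 50.1% had a lower mean in 0 h p.r. None of the 8 passed both thresholds in limma (adjusted p under 0.05 after Benjamini-Hochberg adjustment and a fold of at least 2), nor with limma's voom on the recovered reads, while 6 of 8 had an unadjusted p under 0.05, as had 22.6% of all tested genes. Across all tested genes, 2.7% passed both thresholds, and 0.894% did so with a lower level in 0 h p.r. Groups did not overlap, with 0 h p.r. lower, in 3 of the 8 members (Myl2, Tnnt1 and Tpm3) and in 7.47% of all tested genes. Because levels in these groups were known when the members were chosen, nothing is read from these counts.

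The count of members depended on the scaling and on single libraries. When each library was rescaled to equal levels of 5 tendon matrix genes, Myh7, Myl2, Myl3, Tnnt1 and Tnni1 passed both thresholds. That scaling moved the median of all genes by -0.30 on the log2 scale and changed the calls over all genes to 101 higher and 269 lower, from 250 higher and 124 lower. Relative to that median, the 5 differences lay between -3.30 and -3.77. Without 0 h p.r. replicate 1, Myl2 and Tpm3 passed both, and 241 of the 13767 genes tested in that fit did so (181 higher and 60 lower). Without 0 h p.r. replicate 3, none passed, and the log2 differences of the 5 sarcomere members lay between -2.03 (Myh7) and -2.34 (Myl3).

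The sarcomere members varied more among the 0 h p.r. libraries than among the NC libraries. The SD of Myl3 over 4 libraries on the log2 scale was 3.09 in 0 h p.r. and 0.55 in NC. For Tnnt1 it was 3.06 against 0.38, and for Myh7 3.09 against 1.13. The fast-fibre genes Mylpf (2.18 against 0.88) and Tnnt3 (2.19 against 0.91) also varied more in 0 h p.r. Over all 8 libraries, the SD was 2.86 for Myl3, 2.82 for Myh7, 2.77 for Tnnt1, 2.68 for Tnni1 and 2.35 for Myl2. Between 0.0216% and 0.101% of tested genes had a larger SD than these 5. These values rest in part on 0 h p.r. replicate 3. With that library left out, a choice made after seeing the data, the SD over 7 libraries was 1.47 (Tnnt1) to 1.65 (Myh7), and 0.519% to 1.18% of tested genes had a larger one. The SD among the other 3 0 h p.r. libraries was then 1.68 for Myl3, 1.52 for Tnnt1 and 1.66 for Myh7. Over 8 libraries, by contrast, 15.8% of genes exceeded the SD of Tpm3 and 18.4% that of Atp2a2.

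The gap between NC and 0 h p.r. replicate 3 separated the members into the 5 sarcomere genes and the rest. In that library Myh7 had 39 reads, Tnnt1 19, and Myl3 and Tnni1 11 each, so their folds are rough. The NC mean stood above that library 449-fold for Myh7, 378-fold for Myl3, 303-fold for Tnni1 and 292-fold for Tnnt1. It stood only 3.21-fold above it for Casq2, 2.08-fold for Tpm3 and 1.56-fold for Atp2a2. Casq2, which fast fibres also make at some level, and the widely expressed Tpm3 and Atp2a2 were still measured at 6.97, 103 and 60.4 FPKM in a library whose 5 slow sarcomere genes were at or under 1.52 FPKM.

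Tnnt1, Tnni1 and Myl3 kept similar proportions to one another, while the highest library exceeded the lowest 379-fold for Tnnt1, 396-fold for Tnni1, 560-fold for Myl3 and 641-fold for Myh7. The ratio of Tnni1 to Tnnt1, both per length, averaged 0.451 ± 0.0453 over NC and 0.465 ± 0.0366 over 0 h p.r. (SD, n = 4 each). It was 0.438 in 0 h p.r. replicate 3, where Tnni1 had 11 reads and Tnnt1 19 (1.52 FPKM). The ratio of Myl3 to Tnnt1 was 0.644 to 0.925 in NC and 0.587 to 0.815 after running. The ratio of Myh7 to Tnnt1 was less even, at 0.186 in NC replicate 2, while the other 7 libraries had 0.338 to 0.650. That of Myl2 to Tnnt1 was 0 in 0 h p.r. replicate 3, where Myl2 had no read, and 0.0655 to 0.119 elsewhere.

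Correlation of log2 values over the 8 libraries is given here as a description. The points share their library, its depth and its content of muscle. Among the 10 pairs of the 5 sarcomere members, Pearson's r had a median of 0.989 and ranged from 0.968 to 0.999, and Spearman's rho had a median of 0.976. Deviations from the group means gave a median r of 0.983. Without 0 h p.r. replicates 3 and 4, the libraries farthest from the median, the median over 6 libraries was 0.959 and the range 0.790 to 0.996.

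Casq2 stood further off by Pearson's r, with 0.84 to Myh7 and 0.74 to Tnnt1. By rank it was closer, with rho of 0.976 to Myh7, 0.905 to Tnnt1 and 0.857 to Myl2. Without 0 h p.r. replicate 3, the r of Casq2 was 0.93 to Myh7, 0.77 to Tnnt1 and 0.70 to Myl2. Its lowest NC library was replicate 2, as for Myh7. Tpm3 correlated with the 5 sarcomere members at r from 0.85 to 0.89. Over all 28 pairs of the 8 members, r had a median of 0.859 and a lowest value of 0.538. For deviations from the group means, the median of the 28 pairs was lower, at 0.735, and the lowest value was 0.391. Tpm3 then had r from 0.70 to 0.74 with the sarcomere members, and Casq2 had 0.73 with Myh7 and 0.55 with Tnnt1.

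**Figure D2:**
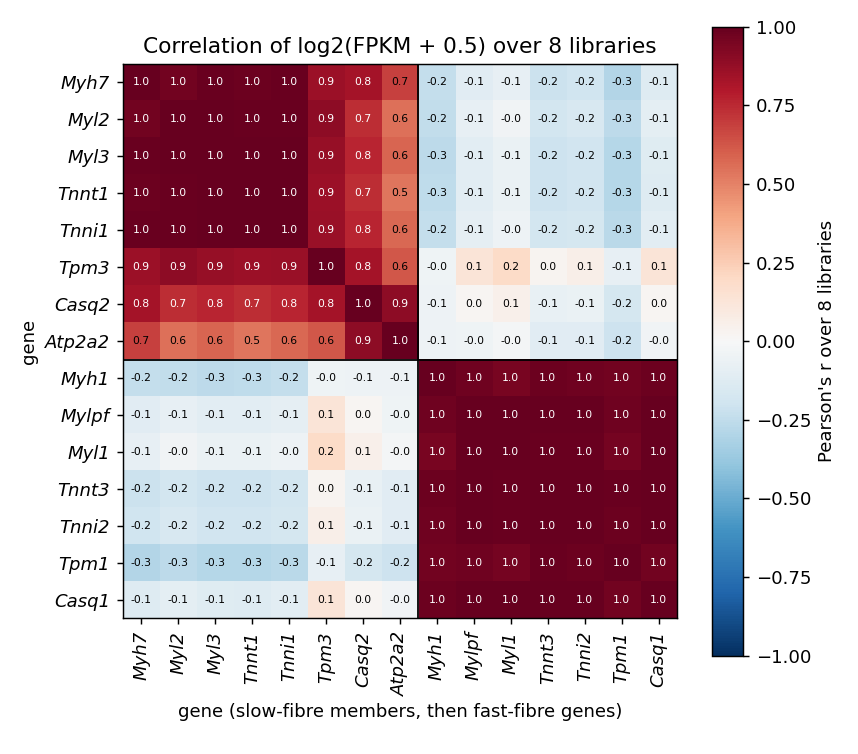
Pearson's r of log2(FPKM + 0.5) over the 8 libraries between slow-fibre members and fast-fibre genes, with colour from -1 (blue) to 1 (red) and r written in each cell. The slow-fibre block and the fast-fibre block are red, with the 5 slow sarcomere members at 0.968 or above among themselves, and the cells between the blocks are pale.

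The fast-fibre genes formed a separate block. Mylpf (ENSRNOG00000017645), the fast regulatory light chain of myosin, had 381, 1446, 1240 and 676 FPKM in NC and 6860, 1106, 2642 and 195 in 0 h p.r. Its lowest and its highest library were both in 0 h p.r., replicates 4 and 1, and the groups overlapped. The difference was 0.77 on the log2 scale (SE 0.968, limma adjusted p = 0.704). It rested on single libraries, being 0.0091, 0.47 and 1.72 when replicate 1, 3 or 4 of 0 h p.r. was left out and 0.40 when NC replicate 1 was left out. Among 12 fast-fibre genes, r over 66 pairs had a median of 0.971 and ranged from 0.869 to 0.999.

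The slow members and Mylpf were then set against each other. A slow score was formed as the mean log2 value of the 6 members that are restricted to muscle (Myh7, Myl2, Myl3, Tnnt1, Tnni1 and Casq2). It was 7.50, 6.21, 7.35 and 7.01 in NC and 6.61, 4.86, 0.62 and 3.79 in 0 h p.r. The group means were 7.02 ± 0.57 and 3.97 ± 2.52 (SD, n = 4 each), a difference of -3.04 that became -1.93 without 0 h p.r. replicate 3. Its r with Mylpf was -0.095 and its rho -0.190 over 8 libraries, against a median r of 0.986 among the 15 pairs of its own genes.

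The weak relation between the slow score and Mylpf had no stable sign. It was 0.121 for deviations from the group means, -0.243 without the pair of libraries farthest from the median score, 0.351 without 0 h p.r. replicate 3 and -0.372 without 0 h p.r. replicate 4. Each of the 8 members taken alone had an r with Mylpf between -0.112 and 0.127 over the 8 libraries, and between 0.0695 (Atp2a2) and 0.602 (Tpm3) for deviations from the group means. The pooled values join groups of opposite sign: for each member the relation to Mylpf was negative among the 4 NC libraries and positive among the 4 0 h p.r. libraries, which are too few for a correlation to be given. The contrast is plainest in 0 h p.r. replicate 3, where Mylpf was at 2642 FPKM, the second highest of the 8 libraries, and Myl2, its slow counterpart, had no read. In NC replicate 1 the reverse held, with the highest slow score and the lowest NC level of Mylpf.

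**Figure D3:**
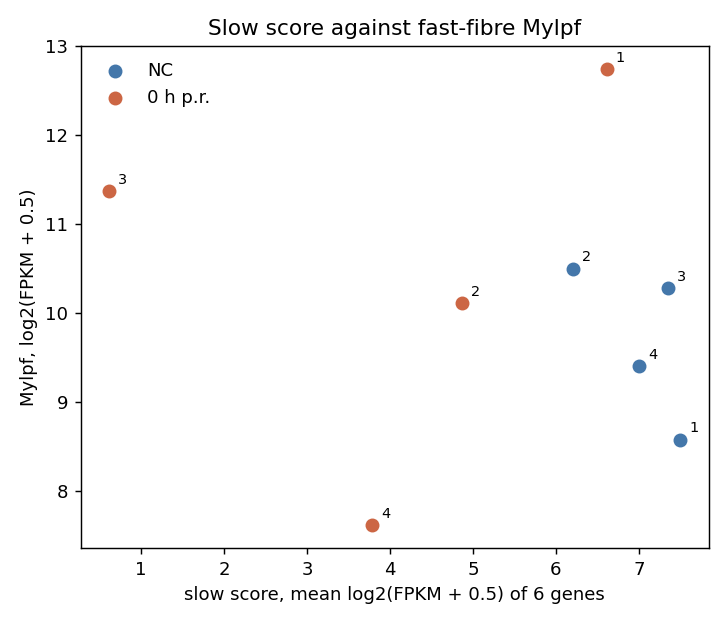
Slow score (mean log2(FPKM + 0.5) of 6 slow-fibre genes, horizontal axis) against Mylpf (log2(FPKM + 0.5), vertical axis), 1 point a library with its replicate number. The points show no common line (r of -0.095 over 8 libraries), and 0 h p.r. replicate 3 combines the lowest slow score, 0.62, with the second highest Mylpf.

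Direct pairs of slow and fast versions of the same protein allow the fibre types to be compared within a library. The ratio of Tnnt1 to its fast version Tnnt3 was 2.75, 0.372, 0.779 and 0.963 in NC and 0.0690, 0.127, 0.000745 and 0.273 in 0 h p.r. Every 0 h p.r. library lay below every NC library. The ratio of Myl3 to Myl1 was 1.38, 0.167, 0.382 and 0.590 in NC and 0.0484, 0.0687, 0.000476 and 0.153 in 0 h p.r., and the groups did not overlap.

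For the inhibitory troponins the separation was not complete. The ratio of Tnni1 to Tnni2 was 4.42, 0.515, 1.41 and 1.91 in NC and 0.138, 0.221, 0.00124 and 0.522 in 0 h p.r., so that 0 h p.r. replicate 4 and NC replicate 2 crossed. The ratio of Casq2 to Casq1 also overlapped, with 0.0483 to 0.542 in NC and 0.0193 to 0.341 in 0 h p.r. The ratio of Myl2 to Mylpf was 0.0225 to 0.144 in NC and 0 to 0.0171 in 0 h p.r., and did not overlap. The ratios of Myh7 and Tpm3 overlapped as well. That of Myh7 to Myh1 was 0.411 to 8.45 in NC and 0.000815 to 0.568 in 0 h p.r., while that of Tpm3 to Tpm1 was 0.332 to 1.44 and 0.0854 to 0.540.

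Over the 4 pairs of Myl2, Myl3, Tnnt1 and Tnni1 with Mylpf, Myl1, Tnnt3 and Tnni2, the slow genes took 57.9%, 15.4%, 27.5% and 35.1% of the summed FPKM in NC. After running they took 3.97%, 6.47%, 0.0435% and 13.2%. The groups did not overlap, the closest libraries being NC replicate 2 and 0 h p.r. replicate 4. The share averaged 34.0 ± 17.9% over NC and 5.93 ± 5.55% over 0 h p.r. (SD, n = 4 each).

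The ways in which the 0 h p.r. libraries reached a low share differed. In 0 h p.r. replicate 1 the 4 slow genes summed to 702 FPKM, about the 699 of NC replicate 2, and the 4 fast genes to 16985, the highest of all. Both were low in 0 h p.r. replicate 4, at 76.8 slow and 503 fast. The slow sum of 0 h p.r. replicate 3 was 3.14 and its fast sum 7221. Averaged over 5 pairs on the log2 scale, with Casq2 and Casq1 added, slow minus fast averaged -1.44 ± 1.25 over NC and -5.21 ± 2.98 over 0 h p.r., a difference of -3.77 that became -2.36 without 0 h p.r. replicate 3.

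**Figure D4:**
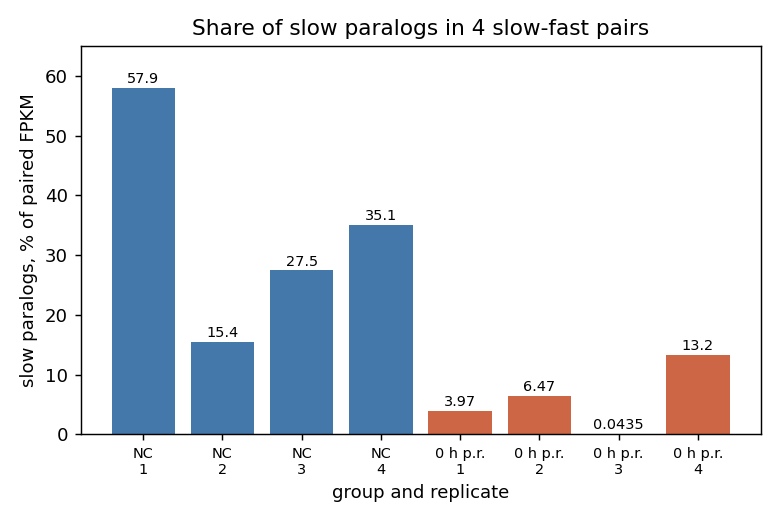
Share of the slow versions in the summed FPKM of 4 slow and fast pairs (vertical axis, %), 1 bar a library. The NC bars lie between 15.4% and 57.9% and the 0 h p.r. bars between 0.0435% and 13.2%.

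Other genes known from slow fibres, not used to form the score, were examined next. Of 9 listed, 8 were tested and Myl6b was not analysed here. Of the 8, 7 had a lower mean log2 value in 0 h p.r. and 1 a higher mean log2 value, with a median log2 difference of -1.17. Mybpc1 was lower on that scale but had the higher mean FPKM in 0 h p.r. (127 against 114). In limma 1 passed both thresholds and 5 had an unadjusted p under 0.05, where 22.6% of all tested genes had one, and voom called 2. The gene that passed was Car3, the carbonic anhydrase of slow fibres that adipocytes also make in large amounts. It fell from a mean of 2059 ± 688 FPKM to 726 ± 278 (SD, n = 4 each), with groups that did not overlap (log2 difference -1.52, SE 0.339, limma adjusted p = 0.0367). Leaving out single libraries gave adjusted p from 0.0391 to 0.119, and the call was lost without NC replicate 1, 2 or 3, or without replicate 2 or 3 of 0 h p.r.

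The other 7 genes of that list did not pass both thresholds in limma on log2(FPKM + 0.5). Ankrd2, a stretch-responsive ankyrin repeat protein of slow fibres, had 45.9, 18.5, 33.4 and 37.0 FPKM in NC and 28.2, 5.30, 0.154 and 2.00 in 0 h p.r. (means 33.7 and 8.91, limma adjusted p = 0.102). Csrp3, the muscle LIM protein, had 76.9, 16.4, 81.6 and 41.8 FPKM in NC and 37.9, 8.72, 1.89 and 3.37 in 0 h p.r. (log2 difference -2.61, limma adjusted p = 0.104). Both were lowest in 0 h p.r. replicate 3, as the slow sarcomere genes were. Myh7b, a further slow-type myosin, had an adjusted p of 0.0388 in that fit with a log2 difference of -0.91, short of a fold of 2. It passed both thresholds in voom (-1.07, adjusted p = 0.0288), with a pseudocount of 0.1, after scaling to tendon matrix genes and without 0 h p.r. replicate 4, and had adjusted p from 0.0288 to 0.196 over its alternatives. The r of Mybpc1 with the slow score was 0.20 over 8 libraries and 0.87 once 0 h p.r. replicate 3 was left out. For Pln it was -0.40 and -0.61.

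The genes whose pattern over the 8 libraries was most like the slow score were sought among 552 genes that vary (SD of at least 1 on the log2 scale), members left out. AC130940.1 (ENSRNOG00000046229), which the files give no other name, came first with r of 0.997. Its FPKM were 1094, 518, 960 and 728 in NC and 618, 144, 2.72 and 69.1 in 0 h p.r. Ankrd2 (0.987), Csrp3 (0.939) and Sln (0.939) followed, Sln coding for sarcolipin, a small inhibitor of the calcium pump. Sln had no read in 0 h p.r. replicate 3 and 2.79 to 27.5 FPKM in the other 0 h p.r. libraries. Next came AC128207.1 (0.930), AC115371.1 (0.910), AABR07010868.1 (0.896), Myom3 (0.890), Myh6 (0.835) and Smpx (0.808). Without 0 h p.r. replicate 3, where AABR07010868.1 was at 0 FPKM, r ran from 0.756 (AABR07010868.1) to 0.996 (AC130940.1). For deviations from the group means it ran from 0.623 (Smpx) to 0.995 (AC130940.1), with 0.648 for Myh6.

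Oxidative muscle genes are shared by slow fibres and some fast fibres. None of 6 passed both thresholds in limma or in voom, and 1 had an unadjusted p under 0.05. The mean of the list had r of 0.22 with the slow score and 0.79 with Mylpf. Mb, the oxygen store of muscle, had 856 FPKM in 0 h p.r. replicate 3, close to its NC mean of 913. Its r was 0.70 with Mylpf and 0.36 with the slow score, and the order turned without that library (0.70 and 0.88). Ckmt2, the mitochondrial creatine kinase of muscle, turned likewise, from 0.70 with Mylpf and 0.38 with the slow score to 0.70 and 0.90. Fabp3, the fatty acid carrier of muscle and heart, was the member of this list with the largest difference (-1.52, adjusted p = 0.128), and its r was 0.62 with the slow score and 0.37 with Mylpf (0.93 and 0.44 without 0 h p.r. replicate 3). Cox6a2, Cox8b and Ppargc1a did not turn. Without 0 h p.r. replicate 3 their r was 0.71, 0.72 and 0.30 with the slow score, and 0.88, 0.82 and 0.90 with Mylpf.

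Of the fast-fibre list, 12 genes were tested. None passed both thresholds in limma or in voom or had an unadjusted p under 0.05. All 12 had a higher mean in 0 h p.r. (median log2 difference 1.04), which leaned on few libraries. Their summed FPKM was 32560 and 14611 in 0 h p.r. replicates 1 and 3. Replicates 2 and 4 had 5682 and 1044, and NC had 1665 to 7207. Omitting replicate 1 left Mylpf only 0.0091 higher. For the fast partners of the 5 pairs, omitting replicate 3 cut the average rise from 0.80 to 0.45. The largest differences were those of Actn3 (1.76) and Mybpc2 (1.67). Of 8 genes of all skeletal fibres none passed in either tool or had an unadjusted p under 0.05, with Actn2 (-1.34) and Ckm (0.91) the most different. Summed FPKM of this list ranged from 3722 to 5169 in NC and from 934 to 22292 in 0 h p.r.

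Markers of heart muscle were checked, since Myh7, Myl2, Myl3, Casq2 and Atp2a2 are heart genes too. Of 8 listed, 4 were tested, with summed FPKM of 19.6 to 46.2 in NC and 5.08 to 51.6 in 0 h p.r. Tnni3 was at 0 in at least 1 library, and Nppa, Nppb, Myl7 and Mybpc3 were not analysed here. Myh6, the alpha myosin heavy chain of the heart, passed both thresholds (log2 difference -1.68, adjusted p = 0.0368) at no more than 4.33 FPKM, against 329 for Myh7, and whether reads were shared with Myh7 was not tested. It passed in 1 of 8 fits that left out a library, with adjusted p from 0.0308 to 0.101, and did not pass after scaling to an equal FPKM sum (0.0889) or with the replicate block (0.117).

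Markers of other cells moved with the groups in part. Of 6 adipocyte genes, 4 fell past both thresholds (Adipoq, Cidec, Lep and Retn, log2 differences -1.69 to -2.41), and voom called 5. All 6 had an unadjusted p under 0.05. Over all tested genes, 0.894% passed both thresholds with a lower level in 0 h p.r. and 22.6% had such a p. Their summed FPKM was 2378 to 4396 in NC and 780 to 1726 in 0 h p.r., and no defining marker was at 0. The mean of this list had r of 0.52 with the slow score over 8 libraries. For deviations from the group means, r was negative for 5 of the 6 genes (-0.67 for Fabp4 to -0.10 for Plin1) and 0.20 for Retn. The part of the adipocyte genes in the slow-fibre result was not tested. In 0 h p.r. replicate 3, the library with the lowest slow score, the adipocyte sum was 1512, within the range of the other 0 h p.r. libraries.

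Tenocyte, junction and developmental muscle genes had none past both thresholds in limma or in voom. Of 8 tenocyte genes 1 had an unadjusted p under 0.05, with Comp (0.67) and Scx (0.48) the most different, and their summed FPKM was 3777 to 7451 in NC and 4154 to 7450 in 0 h p.r. Of 5 genes of the myotendinous and neuromuscular junctions 1 had such a p, with Chrna1 (mean 1.62 FPKM in NC and 0.532 after running) and Ankrd1 (-0.63) the most different, and of 4 developmental muscle genes 1, with Myog (-1.41) and Myod1 (1.15). The mean log2 value of the tenocyte list spanned 7.53 to 8.50 over the 8 libraries, where the slow score spanned 0.62 to 7.50. Endothelial (3 genes tested), smooth muscle (5), Schwann cell (4) and macrophage (4) lists also had none past both thresholds in limma or in voom, with 0, 1, 1 and 1 at an unadjusted p under 0.05. The mean of the smooth muscle list had r of -0.84 with the slow score, its summed FPKM was 983 to 1782 in NC and 1333 to 2097 after running, and its part in the slow-fibre result was not tested.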

How the data were processed

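RNA was sequenced from 4 NC and 4 0 h p.r. Achilles tendons. According to the methods and the submitters' processing notes, the authors aligned stranded reads with HISAT2 2.1.0 to Rnor_6.0, counted them with featureCounts 1.6.3 and used DESeq2 1.30.1. The strand setting of the counting is not given in the sources used here. The authors deposited FPKM values for each library, scaled so that the median gene has the same level in every library. The log2 fold changes and p-values that the authors deposited are their own comparison of the groups and were not used.

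Whole reads were recovered from the steps of the FPKM values, giving whole numbers (within 0.01) for all 15590 genes (100%). These reads served for depth, for floors of 3 reads, which cover counting error only, and for voom. Genes with at least 0.5 FPKM in at least 4 of 8 libraries (13863) entered limma 3.58.1 (R 4.3.3, lmFit and eBayes with trend, two-sided) on log2(FPKM + 0.5), with Benjamini-Hochberg adjustment over all tested genes. Fold changes on this scale understate the change of low genes. Scores, ratios and correlations were computed in Python 3.11.15 with numpy 2.4.6 and pandas 2.3.3, and plots drawn with matplotlib 3.10.9. The fit was tested on simulated data, the outcome of which is not given here and supports no result.

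The slow score was planned over 8 genes and used the 6 with a row. Of 8 planned slow and fast pairs, 5 could be formed. Genes named were the members, their fast partners, genes of each list past both thresholds or else the 2 with the largest difference, and the 10 genes most like the slow score and the 10 most like the slow minus fast difference. Further genes of the other slow-fibre and oxidative lists (Myh7b, Ankrd2, Csrp3, Mybpc1, Pln, Ckmt2, Cox6a2, Cox8b and Ppargc1a) were named after their values were seen. The members and lists were chosen with earlier results of these data known. Promoters came from RefSeq GRCr8, a build other than that of the reads, and were matched by symbol. Alternatives comprised pseudocounts of 0.1 and 1, no filter or a mean of at least 2 FPKM, quantile scaling, scaling to an equal FPKM sum or to tendon matrix genes (Col1a1, Col1a2, Fmod, Comp and Dcn), the replicate number as a block, voom, any fold, Spearman's rho, deviations from group means, and leaving out each library. Omission of the 2 libraries farthest from the median slow score, and SDs without 0 h p.r. replicate 3, were chosen after seeing the data.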

Additional observations from a re-analysis of the deposited data

Results flagged for a closer look

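The level of Atp2a2, the calcium pump of slow fibres, was low in NC replicate 2, at 46.4 FPKM, while the other 3 NC libraries had 105 to 114. The gap to the nearest NC library was 0.909 of the range of the group on the log2 scale, above the critical value of Dixon's test for 4 samples. Chance gives such a gap in about 1 in 20 groups, and 30 groups were examined. The same library also had the lowest NC level of Myh7, Myl2, Myl3, Tnnt1, Tnni1 and Casq2, and the highest mitochondrial share, 31.1%. The part of that share in the low levels was not tested.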

How the results depend on the processing

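The direction of the group difference of each of the 8 members and of Mylpf was the same under every alternative run, and so was the median r among the muscle-restricted members, between 0.913 and 0.991. The number of genes past both thresholds was 374, with 171 after scaling to an equal FPKM sum, 212 with the replicate block, 793 at any fold and 191 to 504 when a library was left out, the lower counts being 210 on omission of NC replicate 1 and 241, 191 and 195 on omission of replicates 1, 2 and 3 of 0 h p.r. The members past both numbered 5 after scaling to tendon matrix genes and 0 to 2 when a library was left out, from 0. The other slow-fibre genes past both numbered 2 with a pseudocount of 0.1, with voom or at any fold, 0 with the replicate block, 4 after scaling to tendon matrix genes and 0 to 3 when a library was left out, from 1. Under the replicate block Car3 had an adjusted p of 0.0776. The r of the slow score with Mylpf was -0.149 after scaling to an equal FPKM sum, -0.0205 after scaling to tendon matrix genes, -0.190 as Spearman's rho, 0.121 within groups, -0.243 without the 2 libraries farthest from the median (chosen after seeing the data) and -0.372 to 0.351 when a library was left out, from -0.095. The cause of these changes was not tested. Same-numbered libraries shared deviations at r of -0.141, -0.0708, 0.0717 and 0.00562, which shows no common pattern by number. Such values cannot tell whether same-numbered samples were handled together. Scaled to tendon matrix genes, 27.3% of calls were higher in 0 h p.r., against 66.8% as deposited. Depth limits the sarcomere members in 0 h p.r. replicate 3, with Myl2 at 0 reads, Myl3 and Tnni1 at 11, Tnnt1 at 19 and Myh7 at 39. Also, 4 libraries a group limit every comparison.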

Other observations

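Genes most like the difference of slow minus fast pairs over the 8 libraries were led by AC130940.1 (r of 0.849, and 0.426 once 0 h p.r. replicate 3 was left out). The others were Retn (0.847), Angpt4 (0.834), Cebpa (0.825), Tmem179 (0.811), Tshr (0.810), Tril (0.807), Lep (0.804), Ces1d (0.803) and Plin1 (0.801). Of these, Retn, Lep and Plin1 are adipocyte markers, and Cebpa codes for a transcription factor of fat cell formation. AC130940.1 followed the slow score more closely (0.997) than the difference. With that library left out, the r of the other 9 genes lay between 0.855 (Ces1d) and 0.957 (Tmem179), and AC130940.1 came last of the 10. These correlations are descriptions over libraries that also differ in group, with no test.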
